A study of Mus musculus with 15 samples.

Results

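The intermediate filament genes examined here were 9 members chosen by name: the keratins Krt5, Krt7, Krt8, Krt14, Krt18, Krt19 and Krt80, vimentin (Vim) and nestin (Nes). All 9 had a row among the 15023 genes of the second dataset and 7 among the 13893 genes of the first. Krt5 and Krt14 were not analysed here in the first dataset. Both datasets are RNA-Seq of lines derived from NMuMG, an epithelial cell line of normal mouse mammary gland. The second dataset held 2 libraries labelled NMuMG with no treatment, called a scrambled shRNA control in the study's text, and 2 libraries of NMuMG cells carrying an shRNA against PCBP1 (shPCBP1), an RNA-binding protein that restrains translation. In the first dataset every line carried shPCBP1, so none is a normal control. Its groups were shPCBP1, with 4 lines (one unaltered and 3 CT clones that received Cas9 without a gene-specific guide), FAM3C KO with 3 clones, LIFR KO with another 3, and a single line that lost both genes (double KO). Each line gave 1 RNA sample. FAM3C encodes a secreted cytokine-like factor and LIFR the receptor subunit for leukemia inhibitory factor. Guide pairs were placed to cut out a short piece of coding sequence, and each knockout line grew from a diluted colony, so a clone's own history and its knockout cannot be told apart within 1 clone.

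Intermediate filaments are rope-like polymers of the cytoplasm and nucleus. Keratin filaments form only when a type II keratin (here Krt5, Krt7, Krt8 and Krt80) pairs with a type I keratin (here Krt14, Krt18 and Krt19). Krt8 with Krt18 is the pair of simple epithelia, including the luminal cells of mammary ducts, whereas Krt5 with Krt14 marks basal and myoepithelial cells. Vimentin is the filament protein of mesenchymal cells and is widely read as a marker of epithelial-mesenchymal transition (EMT), the process that the study followed. Nestin is a large filament protein of neural and other progenitor cells that assembles together with vimentin.

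On GRCm38 with GENCODE M21 annotation, 5 members lie close together near the distal end of chromosome 15: Krt80 (15:101347444-101370162, minus strand), Krt7 (15:101411043-101430313, plus), Krt5 (15:101707070-101712898, minus), Krt8 (15:101996698-102004482, minus) and Krt18 (15:102028180-102032027, plus). Krt18 is the only type I keratin of that group. Krt19 (11:100140810-100148665, minus) and Krt14 (11:100203162-100207548, minus) lie on chromosome 11, Vim (2:13573927-13582826, plus) on chromosome 2 and Nes (3:87971078-87980451, plus) on chromosome 3.

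The RefSeq promoter table for GRCm38.p6 held 7 of the 9 members. The 250 bases before the start are printed for Nes, Krt7 and Vim, which among the members with an entry and past the filter of 0.5 CPM differed most between NMuMG and shPCBP1 cells, and for the Krt8 and Krt18 pair, whose levels were nearly level. Their positions are chr3:87970843-87971092 for Nes, chr15:101412153-101412402 for Krt7 and chr2:13574061-13574310 for Vim, all on the plus strand, chr15:102004343-102004592 on the minus strand for Krt8 and chr15:102027966-102028215 on the plus strand for Krt18. The start is that of the RefSeq entry, which for each of these genes lies inside the GENCODE span given above. The printed bases of Krt7 and Vim lie wholly within those spans, and those of Krt8, Krt18 and Nes in part. Capitals mark matches, on either strand, to CACCTG (an E-box read by Snail and Zeb repressors), GGGCGG (Sp1) or TATAAA, the box at which the general transcription machinery assembles.
Nes: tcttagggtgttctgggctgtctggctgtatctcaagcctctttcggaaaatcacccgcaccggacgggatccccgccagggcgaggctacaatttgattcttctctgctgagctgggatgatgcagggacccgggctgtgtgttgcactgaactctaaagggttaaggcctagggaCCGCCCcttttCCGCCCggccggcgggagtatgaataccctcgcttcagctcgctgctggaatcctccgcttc
Krt7: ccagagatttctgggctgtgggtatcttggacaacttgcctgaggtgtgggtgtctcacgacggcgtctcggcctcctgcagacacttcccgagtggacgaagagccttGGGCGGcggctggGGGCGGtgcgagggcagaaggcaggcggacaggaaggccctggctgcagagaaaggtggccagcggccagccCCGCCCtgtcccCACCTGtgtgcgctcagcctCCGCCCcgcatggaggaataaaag
Vim: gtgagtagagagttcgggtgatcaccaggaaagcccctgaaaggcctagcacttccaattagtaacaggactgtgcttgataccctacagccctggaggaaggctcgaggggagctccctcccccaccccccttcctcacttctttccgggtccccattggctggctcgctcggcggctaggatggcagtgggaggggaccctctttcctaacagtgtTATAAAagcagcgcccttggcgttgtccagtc
Krt8: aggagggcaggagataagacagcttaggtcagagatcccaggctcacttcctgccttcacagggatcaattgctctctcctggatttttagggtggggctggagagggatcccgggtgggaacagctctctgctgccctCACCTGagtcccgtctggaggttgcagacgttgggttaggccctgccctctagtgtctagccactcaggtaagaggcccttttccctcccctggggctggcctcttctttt
Krt18: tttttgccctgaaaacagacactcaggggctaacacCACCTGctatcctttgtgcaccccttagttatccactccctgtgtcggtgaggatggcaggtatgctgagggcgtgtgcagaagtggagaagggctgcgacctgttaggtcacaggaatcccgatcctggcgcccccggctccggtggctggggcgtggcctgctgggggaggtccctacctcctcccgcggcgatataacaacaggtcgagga

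Over the 250 bases before and 50 bases after the RefSeq start, CACCTG was present in 4 of the 7 members (Krt5, Krt7, Krt8 and Krt18), against 20.2% of all 32851 promoters in the table. GGGCGG was present in 2 (Krt7, with 4 matches, and Nes, with 2), against 35.7%. TATAAA was present in Vim, from position -32 to -27 before the start, and in Krt8, where 2 overlapping matches reach past the start, against 13.6%. Neither TTCNNNGAA (STAT; 8.30% of promoters) nor TGANTCA (AP-1; 7.81%) was found in any of the 7. No match of one motif overlapped a match of another. These matches describe letters only.

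The deposited values are in CPM, the reads of a gene scaled to the same total in every library. Steps between low values implied 53032143 to 56496577 reads per library in the second dataset and 16031938 to 46901860 in the first. Pcbp1 was lower in the shPCBP1 libraries of the second dataset, at 14.1 and 14.2 CPM against 287 and 312 CPM. In the first dataset Fam3c was 26.4 to 42.9 CPM in the FAM3C KO clones and 47.0 to 59.4 CPM in the shPCBP1 lines, and Lifr was 14.6 to 34.9 CPM in the LIFR KO clones and 25.8 to 40.2 CPM in the shPCBP1 lines. Neither was called, and loss of a short coding piece need not lower the transcript. Among the libraries, LIFR KO clones 2 and 3 stood apart, and so did the double KO: across 12603 genes their log2 difference from the shPCBP1 mean fell with the GC content of the transcript (Spearman rho -0.75, -0.75 and -0.71, against -0.28 to 0.23 in the other 8 libraries). The same 3 libraries also had more of their CPM in 13 mitochondrial genes, at 5.09%, 5.21% and 6.04%, against 2.47% to 3.07% in the other 8. Any part of that in the member values was not tested. The 7 members have a GC content of 52.3% to 57.6%, above the median of 50.3%, so the calls on LIFR KO below are also given after a GC correction and without LIFR KO clones 2 and 3.

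Knockdown of PCBP1 in the second dataset went with opposite movements inside this gene family. Nestin went from almost no reads to a well expressed transcript, Vim and Krt80 rose more than 2-fold, and Krt7 fell about 12-fold (ratio of mean CPM 11.9). The abundant simple-epithelial keratins Krt8, Krt18 and Krt19 differed by a factor of 1.13 or less. All 7 members that passed the filter of 0.5 CPM were called at the study's adjusted p of 0.07 in limma, which carries little information because 80.1% of all 11384 genes tested were called. When a 1.5-fold difference was also required, 4 of the 7 were called, against 31.1% of all genes. The groups did not overlap for any of the 7, against 89% of all genes. The members' median log2 fold change was 0.08, against 0.02 over all genes. The labels do not say that the 2 libraries of a group came from separate cultures, so the p-values measure only the spread between these libraries.

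Nes stood at 0.0532 and 0.132 CPM in the NMuMG libraries, which is 3 and 7 reads. The shPCBP1 libraries had 268 and 278 CPM, or 29962 reads in all. The 2 groups were separated by more than 3 orders of magnitude, with a ratio of 2985 (exact 95% interval 1623 to 6226, which covers counting error only). The fitted log2 fold change was 10.50 ± 0.15 (SE, n = 2 and 2; limma adjusted p = 1.24e-12), a value that depends on the pseudocount of 0.1 CPM.

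Vim was 474 and 496 CPM in NMuMG and 1089 and 1122 CPM in shPCBP1 cells. It was thus already an abundant transcript in the control line and rose 2.28-fold (log2 fold change 1.19 ± 0.03, limma adjusted p = 1.72e-11). Krt80, a type II keratin that has been placed at desmosomes and the cell margin, was 17.2 and 17.8 CPM in NMuMG and 48.9 and 48.5 CPM in shPCBP1 cells. It rose 2.79-fold (log2 fold change 1.47 ± 0.04, limma adjusted p = 5.43e-11). Krt7, a type II keratin of simple and ductal epithelia, was 18.6 and 18.7 CPM in NMuMG and 1.51 and 1.64 CPM in shPCBP1 cells. It was the only member past the filter to fall by more than 1.5-fold (log2 fold change -3.49 ± 0.09, limma adjusted p = 4.63e-11).

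Krt8 was 1285 and 1302 CPM in NMuMG and 1226 and 1243 CPM in shPCBP1 cells, and Krt18 was 924 and 936 CPM against 965 and 997 CPM. The pair therefore moved in opposite directions by about 5% each, with log2 fold changes of -0.07 ± 0.02 and 0.08 ± 0.02 (limma adjusted p = 0.0106 and 0.00815). The direction of Krt8 flipped under quantile normalization (0.05, adjusted p = 0.0858). Without the first shPCBP1 library Krt8 was no longer called (adjusted p = 0.150), and without the second neither Krt8 nor Krt18 was (adjusted p = 0.0736 and 0.154). Krt19, a small type I keratin of ductal epithelia, was 475 and 495 CPM in NMuMG and 426 and 434 CPM in shPCBP1 cells. It was 1.13-fold lower in shPCBP1 cells (log2 fold change -0.17 ± 0.02, limma adjusted p = 5.08e-05).

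The basal pair was close to absent in all 4 libraries and fell below the filter. Krt5 had 9 and 6 reads in NMuMG and 3 and 2 in shPCBP1 cells, a ratio of shPCBP1 to NMuMG of 0.332 (exact 95% interval 0.0944 to 0.961). Krt14 had 3 and 1 reads in NMuMG and 5 and 6 in shPCBP1 cells, a ratio of 2.74 (0.812 to 11.8), an interval that includes 1. Both intervals cover counting error only. The p63 gene Trp63, which defines basal cells, was listed at 0.0001 CPM, the value deposited in place of 0, in both NMuMG libraries and in 1 of the 2 shPCBP1 libraries.

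**Figure D1:**
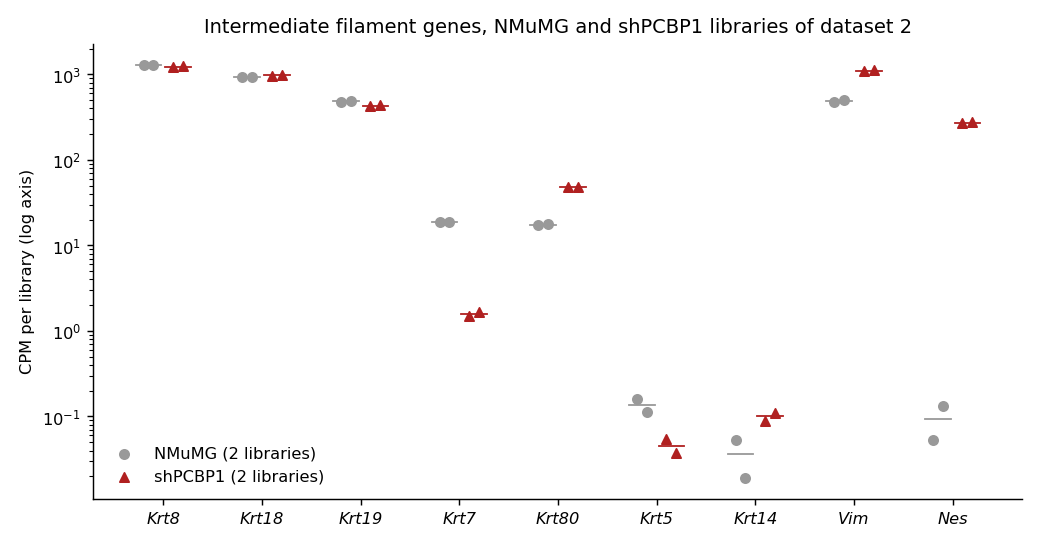
CPM of the 9 intermediate filament genes in each library of dataset 2 on a log axis, with circles for NMuMG, triangles for shPCBP1 and a line at the mean of each pair. Nes lies near 0.1 CPM in NMuMG and near 270 CPM in shPCBP1 cells, Krt7 and Krt80 cross, and Krt8, Krt18 and Krt19 are nearly level.

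Compared between genes per kilobase of principal transcript, the order of the levels changed with knockdown. In NMuMG the mean levels were 661 CPM per kb for Krt8, 647 for Krt18, 308 for Krt19 and 221 for Vim, followed at a distance by Krt80 (5.70) and Krt7 (4.56). In shPCBP1 cells they were 683 for Krt18, 631 for Krt8, 504 for Vim, 273 for Krt19, 44.5 for Nes, 15.9 for Krt80 and 0.385 for Krt7. Vim passed Krt19 in both shPCBP1 libraries, and Krt8 and Krt18 exchanged first place. In NMuMG the lead of Krt8 over Krt18 was 2% per kb (ratio 1.02 in both libraries), a lead that depends on the transcript lengths used.

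Markers of cell types were read beside these results. Among the 10 epithelial markers 2 passed the filter, and both fell: Cdh1, encoding E-cadherin, from a mean of 234 to 149 CPM (log2 fold change -0.65 ± 0.02) and Esrp2, a splicing factor of epithelial cells, from 36.5 to 25.9 CPM (-0.49 ± 0.05; limma adjusted p = 4.55e-10 and 2.12e-06). Summed over the fibroblast markers with a row (3 of 8), the level was 0.638 to 0.830 CPM in NMuMG and 0.758 to 0.896 CPM in shPCBP1 cells, so these markers stayed under 1 CPM where Vim and Nes rose. Within that sum the means in NMuMG and shPCBP1 cells were 0.195 and 0.618 CPM for Col1a1 and 0.539 and 0.0270 CPM for Pdgfra (1 of the 2 shPCBP1 libraries listed at the value used for 0), and Pdgfrb was listed at the value used for 0 in NMuMG and averaged 0.182 CPM in shPCBP1 cells. Immune markers (4 of 5 with a row) summed to 1.15 to 1.27 and 1.68 to 1.70 CPM, endothelial markers (4 of 4) to 0.0193 to 0.0535 and 0.359 to 0.370 CPM, and adipocyte markers (2 of 3) to 0.372 to 0.377 and 0.126 to 0.259 CPM. Basal and myoepithelial markers (5 of 6) summed to 53.1 to 54.9 and 5.53 to 6.01 CPM, nearly all of it Mylk, a myosin light chain kinase also found outside myoepithelium. Any part of these markers in the filament results was not tested. In bulk RNA, fewer cells with a transcript and less of it per cell cannot be told apart.

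Of 42 other intermediate filament genes 6 were tested in the second dataset, and all 6 were called, 4 higher and 2 lower in shPCBP1 cells, where 80.1% of all genes were called (median log2 fold change 0.39, against 0.02 over all genes). Krt20, a type I keratin of differentiated gut and bladder epithelium, had the largest change and fell like Krt7, from 130 to 22.2 CPM (log2 fold change -2.54 ± 0.03). Synm, encoding synemin, which assembles with vimentin, fell from 8.78 to 2.63 CPM (-1.70 ± 0.11). The lamins, which form the filaments under the nuclear envelope, were higher: Lmnb1 by 0.88 ± 0.05, Lmna by 0.60 ± 0.04 and Lmnb2 by 0.17 ± 0.04 on the log2 scale. Krt10, a keratin of suprabasal epidermis, was at 2.41 and 4.14 CPM (0.76 ± 0.12). All 6 had a limma adjusted p of 0.0023 or less.

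Among 15 genes whose products link filaments to desmosomes and to each other, 12 of 13 tested were called, 6 higher and 6 lower, where 80.1% of all genes were called (median log2 fold change -0.01). With a 1.5-fold difference required too, 5 of 13 were called, against 31.1% of all genes. Dsp, encoding desmoplakin, which anchors keratin at desmosomes, fell from 622 to 297 CPM (log2 fold change -1.07 ± 0.02). Evpl, encoding envoplakin, fell from 1.77 to 0.501 CPM (-1.64 ± 0.16), and Tchp, encoding trichoplein, from 17.4 to 10.6 CPM (-0.71 ± 0.06). Eppk1, encoding epiplakin, which binds keratin and vimentin, rose from 4.96 to 15.9 CPM (1.66 ± 0.07), and the crosslinker gene Macf1 rose from 97.9 to 125 CPM (0.35 ± 0.02). Pkp1, a desmosomal plaque gene, was listed at the value used for 0 in NMuMG and averaged 1.09 CPM in shPCBP1 cells.

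In the first dataset FAM3C knockout moved no member past the threshold. None of the 7 was called in limma, and none had an unadjusted p under 0.05, where 0.309% of 12621 genes were called. The smallest adjusted p was 0.520. The fit took its spread from the LIFR KO clones too, among them clones 2 and 3, which carry the GC relation. After GC correction 271 of 12603 genes (2.15%) were called, and with the 2 groups fitted alone 1048 genes were. No member was called in either. The clones lay below all 4 shPCBP1 lines for 2 of the 7, Krt19 and Krt80, where the groups were apart for 22.7% of all genes, and apart with FAM3C KO lower for 12.5%. The members' median log2 fold change was -0.04, against -0.01 over all genes.

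Krt19 was 768 CPM in the unaltered line, and CT clones 1 to 3 had 715, 1011 and 786 CPM. The FAM3C KO clones had 665, 334 and 689 CPM, in the order of their numbers. The mean fell short of the shPCBP1 mean by 0.60 ± 0.29 on the log2 scale (limma adjusted p = 0.520), and clone 2 alone lay far below the others. Krt80 was 49.9, 48.3, 53.6 and 65.5 CPM in the same shPCBP1 lines and 46.5, 43.9 and 41.9 CPM in the clones. The clones lay within 5 CPM of each other, just under the lowest shPCBP1 line (log2 difference -0.29 ± 0.15, adjusted p = 0.549).

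For the rest, the groups overlapped. Krt8 was 743, 582, 818 and 616 CPM in the shPCBP1 lines and 830, 490 and 720 CPM in the FAM3C KO clones, and Krt18 was 1035, 823, 1038 and 936 CPM against 1202, 932 and 1030 CPM. The log2 differences were -0.04 ± 0.27 and 0.14 ± 0.20, and the sign for Krt8 turned when clone 2 was left out (0.18). Vim was the steadiest member, at 1351, 1295, 1336 and 1443 CPM against 1424, 1304 and 1433 CPM (log2 difference 0.03 ± 0.13). Nes was 264, 256, 287 and 217 CPM against 233, 207 and 205 CPM (-0.25 ± 0.12, adjusted p = 0.521). Krt7 stayed low, at 3.18, 1.58, 2.87 and 1.07 CPM against 3.81, 2.52 and 3.96 CPM, and varied 2.99-fold among the shPCBP1 lines alone.

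In LIFR KO clones Krt80 and Krt18 were lower, at 54% and 62% of the shPCBP1 mean. Krt8 stood at 54%, Krt19 at 59% and Vim at 77% of it without passing the test, and Krt7 was not lower (2.71 against 2.17 CPM). All 3 clones lay below all 4 shPCBP1 lines for 5 of the 7 members (Krt8, Krt18, Krt19, Krt80 and Vim), where the groups were apart for 17.2% of all genes and apart with LIFR KO lower for 13.2%. In limma 2 of the 7 were called, Krt80 and Krt18, both lower, where 6.47% of all genes were called and 5.55% were called lower. The median log2 fold change of the members was -0.72, against -0.16 over all genes, so each difference is to be read against that shift. The shPCBP1 lines are the same as in the FAM3C KO comparison. Nes and Krt7 overlapped between the groups.

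Krt80 was 35.6, 24.6 and 27.5 CPM in the LIFR KO clones, in the order of their numbers, while the shPCBP1 lines had 48.3 to 65.5 CPM. Its log2 fold change was -0.90 ± 0.15 (limma adjusted p = 0.0315). Krt18 was 656, 402 and 730 CPM, against 823 to 1038 CPM, with a log2 fold change of -0.72 ± 0.20 (adjusted p = 0.0663). Krt8 was 420, 218 and 470 CPM, against 582 to 818 CPM, and had a larger difference with a wider error (-0.96 ± 0.27, adjusted p = 0.0701). For all 3 genes the lowest library was that of clone 2. Krt19 was 673, 325 and 461 CPM against 715 to 1011 CPM (-0.80 ± 0.29, adjusted p = 0.0967), and Vim was 1069, 844 and 1209 CPM against 1295 to 1443 CPM (-0.40 ± 0.13, adjusted p = 0.0842). Nes was 248, 200 and 216 CPM against 217 to 287 CPM (-0.21 ± 0.12, adjusted p = 0.221). Krt7 was 2.63, 1.95 and 3.56 CPM against 1.07 to 3.18 CPM (0.39 ± 0.37, adjusted p = 0.453).

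These calls were lost under several alternatives. After GC correction no member was called: Krt80 was -0.42 ± 0.10 (limma adjusted p = 0.106), Krt8 -0.45 ± 0.24, Krt19 -0.27 ± 0.22, Krt18 -0.24 ± 0.18 and Vim -0.02 ± 0.13, and Nes turned to 0.23 ± 0.11, with Krt7 at 0.69 ± 0.37. With clone 1 as the sole LIFR KO library, none was called either, but clone 1, whose library showed no such relation to GC content (rho 0.08), was below all 4 shPCBP1 lines for the same 5 members, as it was for 28% of all genes, at log2 differences of -0.60 for Krt80, -0.70 for Krt8, -0.54 for Krt18, -0.27 for Krt19 and -0.34 for Vim. Its spread was taken from the other groups. The call for Krt80 was lost without LIFR KO clone 2 (adjusted p = 0.0900), CT clone 2 (0.109), CT clone 3 (0.0850) or the unaltered line (0.0880). The call for Krt18 was lost on leaving out any line except LIFR KO clone 1 or 3 (adjusted p up to 0.221). Without LIFR KO clone 1, which leaves clones 2 and 3 with the GC relation, 6 members were called. Over all genes, calls on leaving out 1 library ran from 5 to 7234, against 816 of 12621 with all lines. The share of all genes called in that omission alone is not given here, so the 6 is not read as a result about the members.

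**Figure D2:**
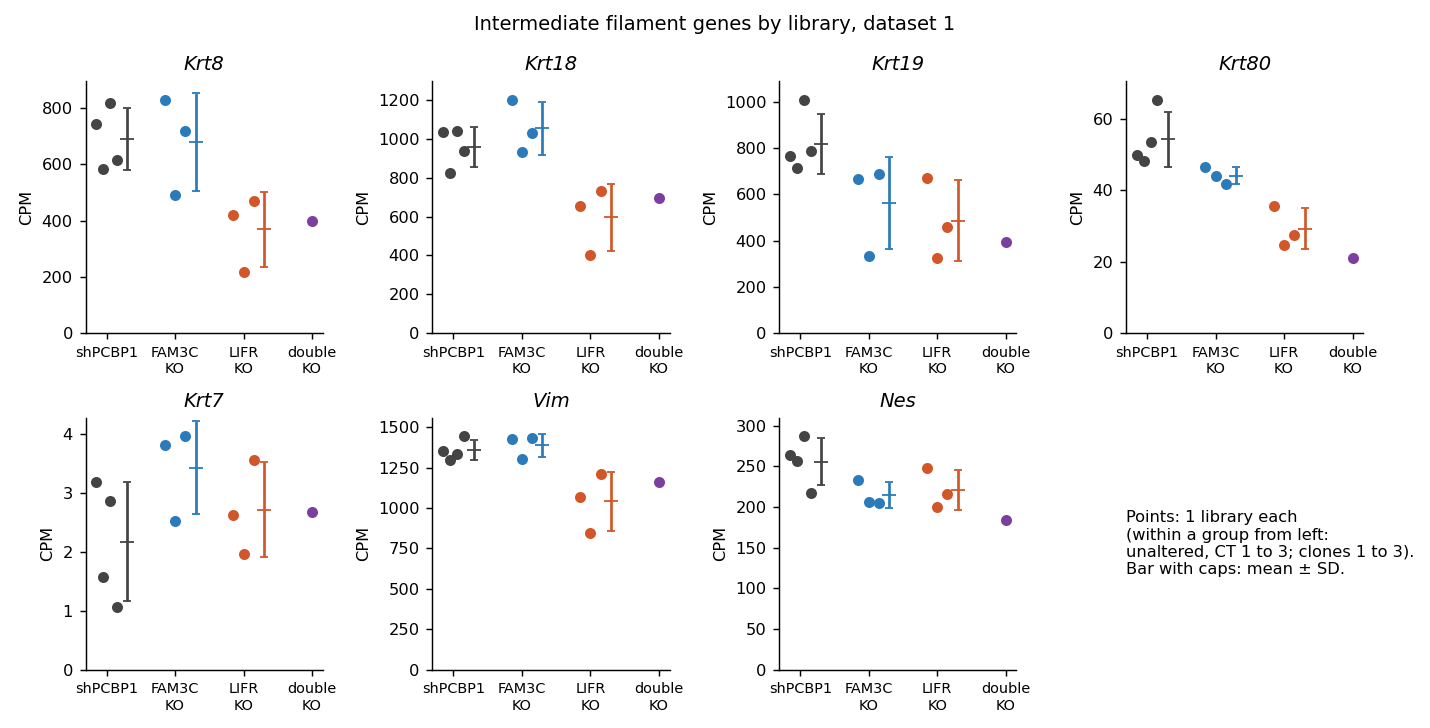
CPM of 7 intermediate filament genes in each library of dataset 1, 1 panel per gene with axes from 0, points for libraries and capped bars for the group mean ± SD. The LIFR KO points lie below the shPCBP1 points for Krt8, Krt18, Krt19, Krt80 and Vim, and overlap them for Krt7 and Nes.

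The genes around the keratins on chromosome 15 were lower in LIFR KO clones too. Over 103 tested genes from 95 Mb to the end of the chromosome that are not intermediate filament genes, LIFR KO clones 1 to 3 had median log2 differences from the shPCBP1 mean of -0.46, -0.93 and -0.51. The shPCBP1 lines had medians of -0.15 to 0.11 and the FAM3C KO clones of -0.04 to 0.04. Over all genes the medians in LIFR KO clones 1 to 3 were -0.01, -0.25 and -0.21. Of the 103 neighbours 49 were called in LIFR KO against shPCBP1, all lower, where 6.47% of all genes were called. After GC correction the neighbours' medians were -0.39, -0.43 and 0.0040 in clones 1 to 3, and 3 were called, where 0.452% of all genes were. With clone 1 as the sole LIFR KO library 20 were called, all lower, where 2.22% of all genes were.

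Set against those neighbours, Krt18 was -0.31 to 0.12 and Krt8 -0.71 to -0.03 in the LIFR KO clones on the log2 scale, overlapping the shPCBP1 lines (-0.14 to 0.13 and -0.26 to 0.23). Krt80 was -0.46 to -0.14 relative to the neighbours, below the shPCBP1 lines (-0.10 to 0.17). It was also below them in the FAM3C KO clones, at -0.40 to -0.25. After GC correction Krt8 and Krt18 in clone 3 were above the shPCBP1 mean (0.17 and 0.28), while in clones 1 and 2 they were below it (-0.64 and -0.87 for Krt8, -0.48 and -0.53 for Krt18). How far the level of the region accounts for the keratin values was not tested. Krt19 and Vim do not lie on chromosome 15.

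**Figure D3:**
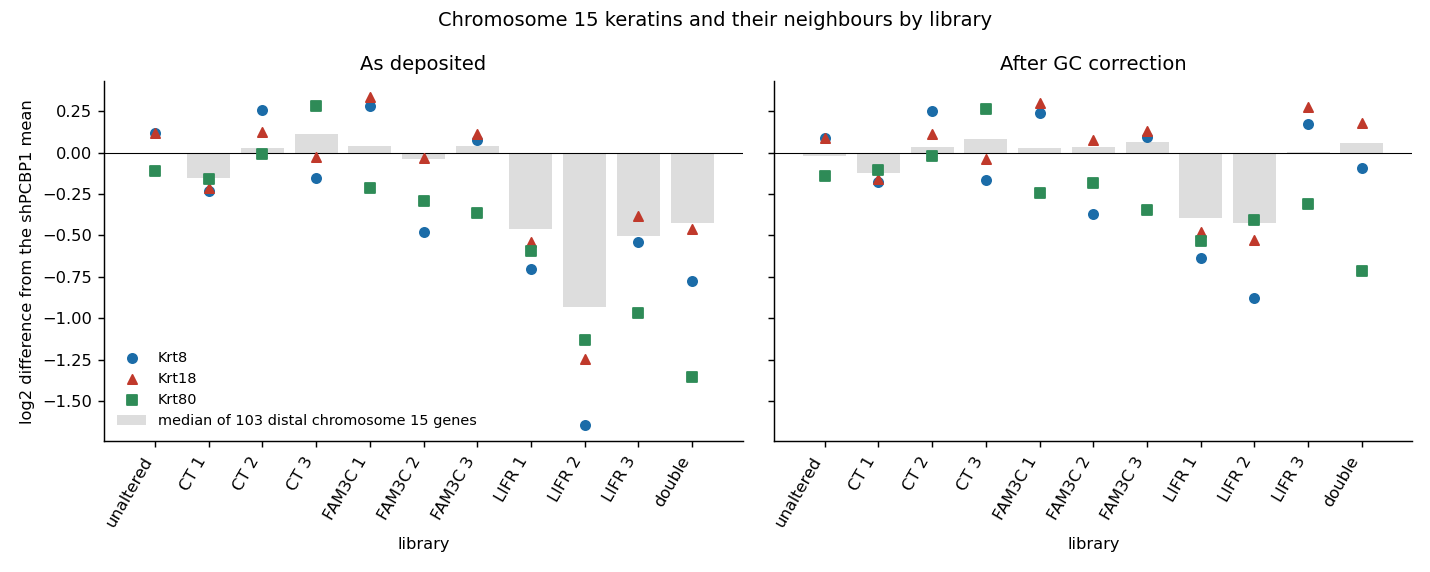
Log2 difference of each dataset 1 library from the shPCBP1 mean for Krt8 (circles), Krt18 (triangles) and Krt80 (squares), with grey bars for the median of 103 neighbouring genes, as deposited (left) and after GC correction (right). In LIFR KO clones 1 and 2 the bars and the keratins are low in both panels, and in clone 3 the bar returns to 0.0040 after correction.

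The direct comparison of the knockouts gave the test of the difference itself. Krt18 was higher in FAM3C KO than in LIFR KO clones by 0.86 ± 0.21 on the log2 scale (limma adjusted p = 0.0466) and Krt80 by 0.61 ± 0.16 (0.0531), so 2 of the 7 members were called, where 8.28% of all genes were and 6.83% with FAM3C KO higher. The groups were apart for 4 of the 7, all with FAM3C KO higher (Krt8, Krt18, Krt80 and Vim), where 22.8% of all genes were apart and 16.1% with FAM3C KO higher. Krt8 (0.92 ± 0.29, adjusted p = 0.0820) and Vim (0.43 ± 0.14, 0.0865) missed the threshold, and were 0.43 ± 0.25 and 0.10 ± 0.14 after GC correction. Krt19, Krt7 and Nes overlapped. After GC correction neither Krt18 (0.41 ± 0.19, adjusted p = 0.239) nor Krt80 (0.16 ± 0.11, 0.422) was called. With clone 1 as the sole LIFR KO library the differences were 0.68 ± 0.17 for Krt18 and 0.31 ± 0.16 for Krt80, values that rest on 1 LIFR KO library. Both calls were lost without any 1 FAM3C KO clone, LIFR KO clone 2, CT clone 1 or 2, or the unaltered line (adjusted p from 0.0720 to 0.202), Krt18 also without CT clone 3 (0.0726) and Krt80 also without LIFR KO clone 3 (0.0756).

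**Figure D4:**
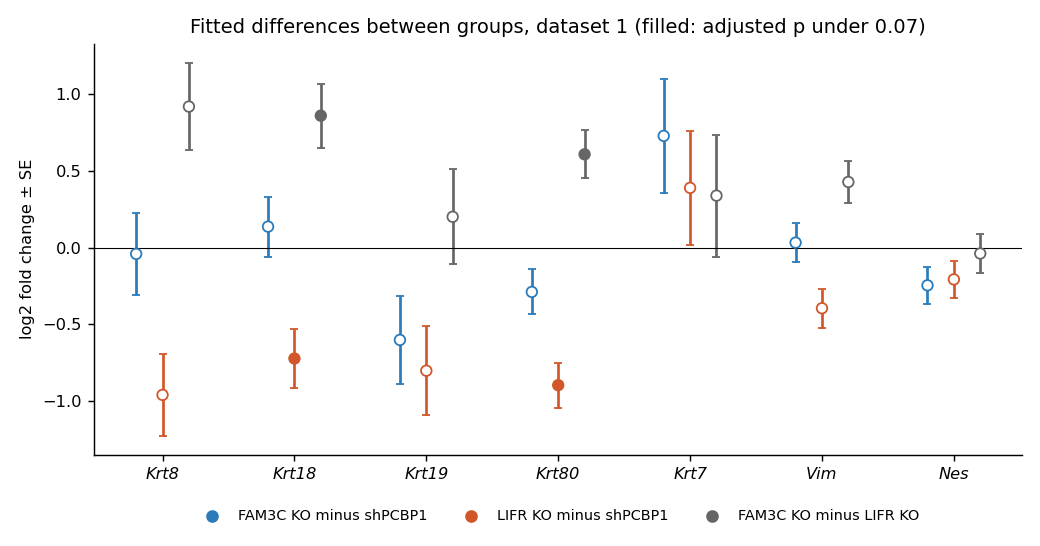
Fitted log2 fold changes ± SE of 7 intermediate filament genes for the 3 comparisons of dataset 1, with filled points where the adjusted p was under 0.07. Filled points are Krt18 and Krt80 in LIFR KO against shPCBP1 and in FAM3C KO against LIFR KO, and none is filled for FAM3C KO against shPCBP1.

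In the double KO line, which is a single library with no replicate, Krt80 (21.1 CPM) and Nes (184 CPM) lay below every shPCBP1 line. So did Krt8 (399 CPM), Krt18 (693 CPM), Krt19 (396 CPM) and Vim (1163 CPM), and 53.8% of all genes. The median log2 difference of this library from the shPCBP1 mean was -0.24 over all genes. Krt80 and Nes were also lower here than in any other library of the first dataset. The share of all genes for which that holds is not given here, so it does not single them out. Krt7 (2.67 CPM) was neither below nor above all shPCBP1 lines. As fractions of the shPCBP1 mean the values were 39% for Krt80, 48% for Krt19, 58% for Krt8, 72% for Krt18, 72% for Nes and 86% for Vim. This library carried the GC relation, and after GC correction Krt18, Nes and Vim were above the shPCBP1 mean (log2 differences 0.18, 0.13 and 0.29) while Krt80 stayed at -0.71, Krt19 at -0.32 and Krt8 at -0.09.

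Because Krt8 and Krt18 proteins pair, their ratio within a library was followed, a value that no scaling of the library can move. In CPM it was 0.72 ± 0.05 in shPCBP1 lines (SD, n = 4), 0.64 ± 0.10 in FAM3C KO (n = 3), 0.61 ± 0.06 in LIFR KO (n = 3) and 0.58 in the double KO. All 3 LIFR KO clones (0.544 to 0.644) lay below the 4 shPCBP1 lines (0.658 to 0.788). The mean log2 ratio was 0.24 lower in LIFR KO (exact permutation test, two-sided, p = 0.0571; 0.114 after Benjamini-Hochberg adjustment over 2 comparisons), where 4 lines against 3 allow a p of 0.0286 at least. For FAM3C KO it was 0.18 lower (exact permutation p = 0.257, adjusted 0.257), with clones 1 and 3 at 0.691 and 0.699 and clone 2 at 0.526. In the second dataset the ratio was 1.39 in both NMuMG libraries and 1.27 and 1.25 in the shPCBP1 libraries. The shPCBP1 lines thus had a ratio above 1 in one dataset and below 1 in the other. The datasets are separate sets of libraries, and the paper calls the second preexisting. Gene starts were the same as in GENCODE M21 for 302 of 13893 genes in the first dataset and 14295 of 15023 in the second. The cause of the different ratios was not tested.

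**Figure D5:**
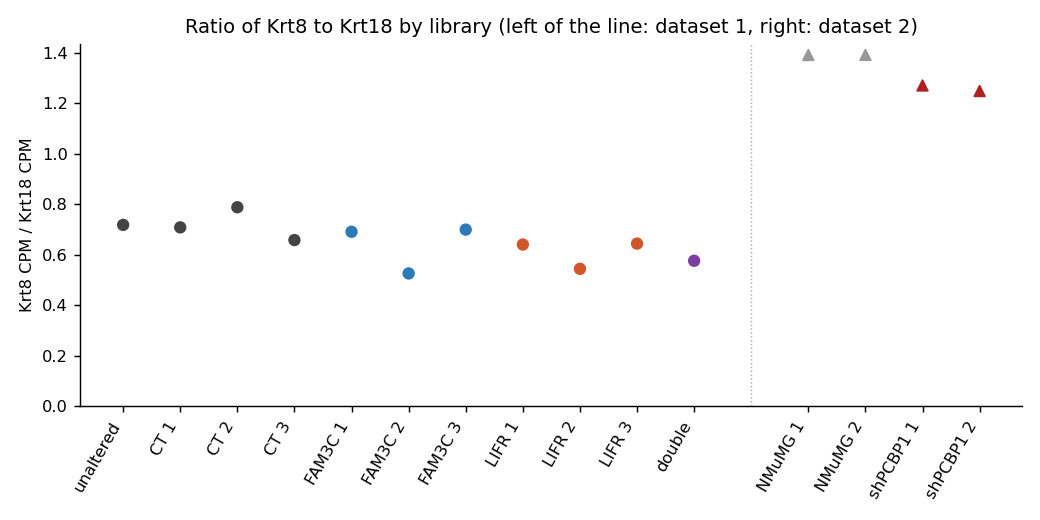
Ratio of Krt8 CPM to Krt18 CPM in each library, from 0, with dataset 1 left of the dotted line and dataset 2 (triangles) right of it. The ratio lies between 0.526 and 0.788 in dataset 1 and between 1.25 and 1.39 in dataset 2.

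Per kilobase, the mean levels in the shPCBP1 lines of the first dataset were 667 CPM per kb for Krt18, 618 for Vim, 520 for Krt19, 352 for Krt8, 41.8 for Nes, 17.7 for Krt80 and 0.531 for Krt7. The last 3 places were the same in all 11 libraries. Among the first 3 places the order varied between lines of one group: Vim was first in CT clones 1 and 3, and Krt18 in CT clone 2 and the unaltered line. Vim was first in all 3 LIFR KO clones and in the double KO, and Krt18 in all 3 FAM3C KO clones.

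Of the other intermediate filament genes 9 were tested in the first dataset. None was called in FAM3C KO, where 0.309% of all genes were called. In LIFR KO 1 was called, where 6.47% of all genes were: Lmna, encoding lamin A and C, fell from 467 to 247 CPM (log2 fold change -1.002 ± 0.217, limma adjusted p = 0.0433). Lmna was also called against FAM3C KO (0.81 ± 0.23 higher there, adjusted p = 0.0673), a call lost after GC correction (0.23 ± 0.08, 0.141) and with clone 1 alone (0.13 ± 0.11, 0.519). Against shPCBP1 it stayed just past the threshold in LIFR KO after GC correction (-0.38 ± 0.07, 0.0692) and not with clone 1 alone (-0.32 ± 0.11, 0.239). Of the filament linkers 14 were tested. FAM3C KO gave no call, where 0.309% of all genes were called. In LIFR KO 4 linkers were called, all lower, where 5.55% of all genes were called lower. Plec, encoding plectin, a giant crosslinker of filaments, fell from 2058 to 928 CPM (-1.22 ± 0.24, adjusted p = 0.0387). Eppk1 fell from 51.6 to 24.4 CPM (-1.13 ± 0.23, 0.0395), Fam83h, a keratin-organizing gene, from 90.2 to 54.2 CPM (-0.78 ± 0.20, 0.0562), and Tchp from 19.7 to 12.5 CPM (-0.70 ± 0.18, 0.0565). Plec and Fam83h lie on chromosome 15, as does the Eppk1 gene of the second dataset. The Eppk1 identifier of the first dataset had no position in the annotation. The list's median was -0.39, against -0.16 over all genes. None of the 13 linkers with a GC value was called after GC correction, and with clone 1 alone only Eppk1 was (-0.98 ± 0.21, 0.0639). Plec, Eppk1 and Fam83h were also higher in FAM3C KO than in LIFR KO clones (1.16 ± 0.25, 1.01 ± 0.25 and 0.83 ± 0.21, adjusted p = 0.0403, 0.0477 and 0.0512), where 6.83% of all genes were called higher. After GC correction Plec (0.49 ± 0.17, 0.158) and Fam83h (0.18 ± 0.19, 0.622) were not called and Eppk1 had no GC value, and with clone 1 alone Eppk1 was called (0.86 ± 0.21, 0.0502) and Plec (0.61 ± 0.17, 0.0704) and Fam83h (0.53 ± 0.16, 0.0845) were not.

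Cdh1 was not called in any comparison of the first dataset, at 292 to 346 CPM in shPCBP1, 246 to 362 CPM in FAM3C KO and 268 to 344 CPM in LIFR KO lines (log2 difference for LIFR KO -0.04 ± 0.14, limma adjusted p = 0.852). Summed marker levels in shPCBP1, FAM3C KO and LIFR KO libraries were 2.34 to 4.93, 5.30 to 5.53 and 2.37 to 3.22 CPM for fibroblast markers (4 of 8 with a row), 8.64 to 10.3, 5.84 to 10.5 and 4.55 to 11.2 CPM for immune markers (2 of 5), 0.624 to 1.44, 0.768 to 2.24 and 0.751 to 1.12 CPM for endothelial markers (3 of 4) and 11.3 to 17.1, 16.2 to 27.0 and 9.14 to 15.8 CPM for basal and myoepithelial markers (5 of 6). Most of the immune sum was Cd68, a lysosomal gene that other cells also express. Mylk was higher in FAM3C KO than in LIFR KO clones, with means of 17.6 and 7.25 CPM (log2 difference 1.42 ± 0.41, adjusted p = 0.0693), and was called without LIFR KO clones 2 and 3 too (1.35 ± 0.33, 0.0467) but not after GC correction (1.10 ± 0.41, 0.170). Its part in the keratin results was not tested. The adipocyte markers were not analysed here in this dataset.

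Across the 11 libraries of the first dataset, members differed in how alike their patterns were. Krt8 and Krt18 had a Pearson r of 0.97 on log2 values, Krt18 and Vim 0.96 and Krt8 and Vim 0.93. Without the 3 libraries with the GC relation these were 0.89, 0.87 and 0.76 over 8 libraries. Vim and Nes, which rose together with PCBP1 knockdown, had an r of 0.29 over 11 libraries and -0.31 over 8. The libraries share the shPCBP1 cell line, and 3 of them the GC relation, so these values are descriptions. Leaving members out, the genes most like Krt8 were Zc3h3 (r = 0.97), Prag1 (0.96) and Itgb4 (0.96), those most like Vim were Fam43a (0.99), Arf3 (0.98) and Xrcc6 (0.98), and those most like Nes were Lgals9 (0.93), Rpl23a (0.92) and Csrp2 (0.91). Without the 3 libraries with the GC relation these values were 0.86 (Itgb4) to 0.98 (Arf3) over 8 libraries. Among the genes named, Zc3h3, Arf3 and Xrcc6 lie on chromosome 15, where Vim does not lie. Of 12621 tested genes, 490 outside the intermediate filament genes lie on that chromosome.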

How the data were processed

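RNA-Seq of 15 libraries was analysed, of which 11 made up the first dataset and 4 the second. The authors depleted ribosomal RNA, made directional libraries, sequenced paired ends, aligned to GRCm38 (mm10) with Bowtie2 in Partek Flow, and deposited CPM per library, with 0.0001 CPM in place of 0 in the second dataset. The paper gives no separate methods for the second dataset, which it calls preexisting. The deposited mean CPM and ratio (fold change) columns of the authors' own comparison were not used. Under 5 CPM, 85.1% to 90.2% of values were whole multiples of 1 read (tolerance 0.1 read), so no count test was run.

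Each dataset was fitted apart with limma 3.58.1 (R 4.3.3) with a mean-variance trend on log2(CPM + 0.1), on genes averaging 0.5 CPM or more, with Benjamini-Hochberg adjustment over all of them and the study's threshold of 0.07. The pseudocount shrinks fold changes of low genes. The fits did not include the double KO. A loess on transcript GC content (span 0.3) gave the GC correction. GC content, lengths and positions came from GENCODE M21 (principal transcripts). With 2 libraries against 2 an exact permutation test cannot go below 0.333. The fits were tested on simulated data. The members, gene lists and tests were chosen with earlier results of these data known. Genes named from a list are at most 6 per comparison, those called with the largest change. Alternatives were other pseudocounts, filters, scalings and thresholds, GC correction, a replicate block, each pair of groups alone, and leaving out libraries.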

Additional observations from a re-analysis of the deposited data

Results flagged for a closer look

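Krt18 and Krt80 were marked because the effects of the 2 knockouts on them differed in a test of the difference itself: FAM3C KO minus LIFR KO was 0.86 ± 0.21 for Krt18 and 0.61 ± 0.16 for Krt80 on the log2 scale (limma adjusted p = 0.0466 and 0.0531). The 3 FAM3C KO clones lay above the 3 LIFR KO clones for both genes, where 16.1% of all genes were apart in that direction. Over all genes 8.28% were called in this comparison. Neither call held after GC correction, where the differences were 0.41 for Krt18 and 0.16 for Krt80. Among 8 sets of 4 shPCBP1 values (7 genes and the ratio of Krt8 to Krt18), no library stood apart by Dixon's criterion.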

How the results depend on the processing

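The 4 large changes with PCBP1 knockdown (Nes, Krt7, Krt80 and Vim) kept direction and call under every alternative run. For members called in that comparison the count was 7, fell to 4 when a 1.5-fold difference was required too, and was 5 to 7 when 1 library was left out. For LIFR KO against shPCBP1 the count was 2. It was 0 with the 2 groups fitted alone, GC correction, GC correction with replicate block, the replicate block or without clones 2 and 3, and 1 at an adjusted p under 0.05, after median-ratio rescaling or after quantile normalization. Leaving out 1 library gave 0 to 6, where calls over all genes ran from 5 to 7234. For FAM3C KO against LIFR KO it was 2. It was 0 with the 2 groups alone, GC correction, with or without the block, or the replicate block, and 1 at 0.05. With 1 library left out it was 0 to 4, where calls over all genes ran from 1 to 6673. For FAM3C KO against shPCBP1 it stayed 0. The differences in the Krt8 to Krt18 ratio kept direction. With 1 line left out, too few lines remained for the exact permutation test to go below 0.05. Those omissions therefore could not show whether a p under 0.05 would hold.

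Signs that turned were Krt8 with PCBP1 knockdown under quantile normalization (0.046), Krt8 in FAM3C KO with GC correction and block (0.017) or 1 line left out (-0.20 to 0.18), and Vim in FAM3C KO under quantile normalization (-0.028). Nes in LIFR KO turned with GC correction (0.23) and with the block added (0.24). In FAM3C KO against LIFR KO, Krt19 turned with GC correction (-0.31, block included), without clones 2 and 3 (-0.33) and when 1 library was left out (-0.059 to 0.54, the lowest without LIFR KO clone 2), and Nes when 1 library was left out (-0.11 to 0.047, the highest without LIFR KO clone 1). The cause of these changes was not tested. Counts for the gene lists and chromosome 15 neighbours under GC correction or without clones 2 and 3 were added after seeing the data.

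Same-numbered libraries of different groups did not deviate together, so the replicate numbers share only a number. The correlations were -0.18 to 0.15 in the first dataset, with the double KO left out, and 0.05 in the second. Over all genes, LIFR KO calls fell from 816 to 10 with the block and to 57 with GC correction, and to 281 without clones 2 and 3. FAM3C KO calls went from 39 to 15 and to 271, and calls between the knockouts from 1045 to 0 and to 64. With each pair of groups fitted alone the 3 counts were 35, 1048 and 0. Over the omissions of 1 library they ran from 5 to 7234, 3 to 359 and 1 to 6673. At an adjusted p under 0.05 the LIFR KO calls and those between the knockouts were 359 and 587, and median-ratio rescaling gave 478 for LIFR KO. With at least 2 CPM, FAM3C KO calls were 12. Implied depth leaves Krt5 and Krt14 at a few reads, too few to tell small changes.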

Other observations

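The level of chromosome 15 was followed along its length after its distal genes were seen to be low, so this description was chosen with values in view. In LIFR KO clone 1 the median log2 difference from the shPCBP1 mean was 0.10 for 40 genes between 0 and 15 Mb, 0.13 for 8 genes between 15 and 30 Mb, 0.03 for 48 genes between 30 and 45 Mb and 0.02 for 35 genes between 45 and 60 Mb. It was -0.64 for 31 genes between 60 and 75 Mb, -0.46 for 212 genes between 75 and 90 Mb and -0.46 for 116 genes between 90 and 105 Mb, the last of which holds the keratins. In clone 2 the same last 3 windows stood at -0.79, -1.15 and -0.90, and in clone 3 at -0.14, -0.60 and -0.41, in libraries that carry the GC relation. In the 3 FAM3C KO clones they lay between -0.07 and 0.10. Taken whole, chromosome 15 had the lowest median of the 20 chromosomes in LIFR KO clone 1 (-0.40, with the other 19 between -0.06 and 0.16) and in clone 2 (-0.87). It was also the lowest in CT clone 1, a control line (-0.13), and the sixth lowest in LIFR KO clone 3 (-0.35, with chromosome 7 lowest at -0.48). In the double KO line the last 3 windows stood at -0.36, -0.62 and -0.34, in a library that also carries the GC relation. After GC correction its median over the 103 distal neighbours was 0.06. Lifr itself lies on chromosome 15, and where it lies among these windows was not examined. The cause of the low level of the distal windows was not tested.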
